A study of Mus musculus with 6 samples.

Results

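The genes described here are the repressor arm of the circadian clock, 10 genes of the 27179 in the mRNA-seq tables. They are the cryptochromes Cry1 and Cry2, the period genes Per1, Per2 and Per3, the REV-ERB nuclear receptor genes Nr1d1 and Nr1d2, and the E-box repressors Ciart, Bhlhe40 and Bhlhe41. They were taken by name, and each symbol was matched to its NCBI Gene identifier in the tables. All 10 passed the filter on low counts that left 14069 genes for testing.

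The mRNA was measured in 3 mouse embryonic fibroblast lines. In CPN-/- cells Cry1, Cry2, Per1, Per2, Nr1d1 and Nr1d2 are all disrupted. Lines CPN-/- CRY1 and CPN-/- CRY2 are the same cells expressing mouse CRY1 or CRY2 from a virally delivered cDNA, which is driven by a viral promoter and so stands outside the clock's own feedback. All 3 lines therefore carry the 6 disrupted genes, and Per3, Ciart, Bhlhe40 and Bhlhe41 are the only members that were not targeted. Each CRY line was picked as a single colony, so that the cryptochrome and the clone cannot be told apart. Each line had 2 libraries from separate RNA preparations of growing, nearly confluent cultures. Their spread is that between preparations of a single line.

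In the mammalian clock, the CLOCK and BMAL1 proteins (the latter encoded by Arntl) bind E-boxes in DNA and activate the Per, Cry, Nr1d, Ciart and Bhlhe genes, among others. The PER and CRY proteins return to the nucleus and repress CLOCK-BMAL1, while the REV-ERB proteins repress Arntl through other elements. CIART, also called CHRONO, acts on CLOCK-BMAL1, and the DEC proteins encoded by Bhlhe40 and Bhlhe41 compete with it for E-boxes. Fibroblasts carry a clock of this kind of their own.

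The E-box, CACGTG, reads the same on both strands, and the repressor genes are known for carrying it near their starts. The promoter windows of RefSeq (mouse build GRCm38.p6, 250 bases before to 50 after each start) were searched for it, for the variant CACGTT, for the D-box TTATGNAA that the PAR bZIP factors bind, and for the core TAGGTCA that the ROR and REV-ERB receptors bind. All were searched on both strands, and a position is that of a match's leftmost base on the strand of the gene. Windows were found for 8 of the 10 members. Per2 and Bhlhe40 had none in the reference used, so their promoters were not searched. Per1 had 2 of them, which made 9 windows. The stretches below hold every E-box and variant match in the members' windows, and are shown because CLOCK and BMAL1 bind E-boxes. Each runs 5′ to 3′ on the strand of its gene, with the matches in capitals, and AACGTG is the variant read on the opposite strand.
Cry1: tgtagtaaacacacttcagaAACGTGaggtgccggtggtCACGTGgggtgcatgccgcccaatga
Cry2: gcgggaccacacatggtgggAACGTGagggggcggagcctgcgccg
Per1: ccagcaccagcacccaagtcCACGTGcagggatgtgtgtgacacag
Nr1d1: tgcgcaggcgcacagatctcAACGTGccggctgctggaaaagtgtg
Ciart: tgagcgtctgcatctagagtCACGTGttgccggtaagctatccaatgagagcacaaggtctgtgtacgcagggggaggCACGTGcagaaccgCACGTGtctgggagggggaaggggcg
Bhlhe41: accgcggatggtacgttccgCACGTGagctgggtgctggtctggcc

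These stretches lie at chr10:85185089-85185153 for Cry1, chr2:92434210-92434255 for Cry2, chr11:69098763-69098808 for Per1, chr11:98775380-98775425 for Nr1d1, chr3:95882247-95882364 for Ciart and chr6:145865548-145865593 for Bhlhe41. That of Per1 is on the forward strand and the others are on the reverse strand. All lie before the annotated start of transcription, outside the transcribed part of that transcript. For Per1, Cry2, Per3 and Ciart the start used lies inside the annotated gene. Per1 begins upstream at 69095108 and ends at 69109965. Ciart, on the reverse strand, reaches to 95882257, so that its stretch overlaps the edge of the annotated gene. Ciart had 3 E-boxes, starting at positions -116, -58 and -44 from the start of transcription. Cry1 had an E-box at -60 and the variant at -79, Per1 an E-box at -166 and Bhlhe41 an E-box at -153. Cry2 and Nr1d1 held only the variant, at -166 and -28. D-boxes were found in Per1, at -24, and in Per3, at -205 and -158. Over all 32851 windows in the RefSeq table, 7.15% held the E-box, 4.68% the variant, 3.38% the D-box and 2.61% the receptor core. The receptor core was in no member's window, and that of Nr1d2 held none of the 4 motifs. The other members lie at chr1:91415977-91459351 (Per2, reverse strand), chr4:150997018-151044707 (Per3, reverse), chr14:18204056-18239106 (Nr1d2, reverse) and chr6:108660629-108666925 (Bhlhe40, forward) in the same build. Motif matches describe the letters in short windows and do not show binding.

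**Figure D1:**
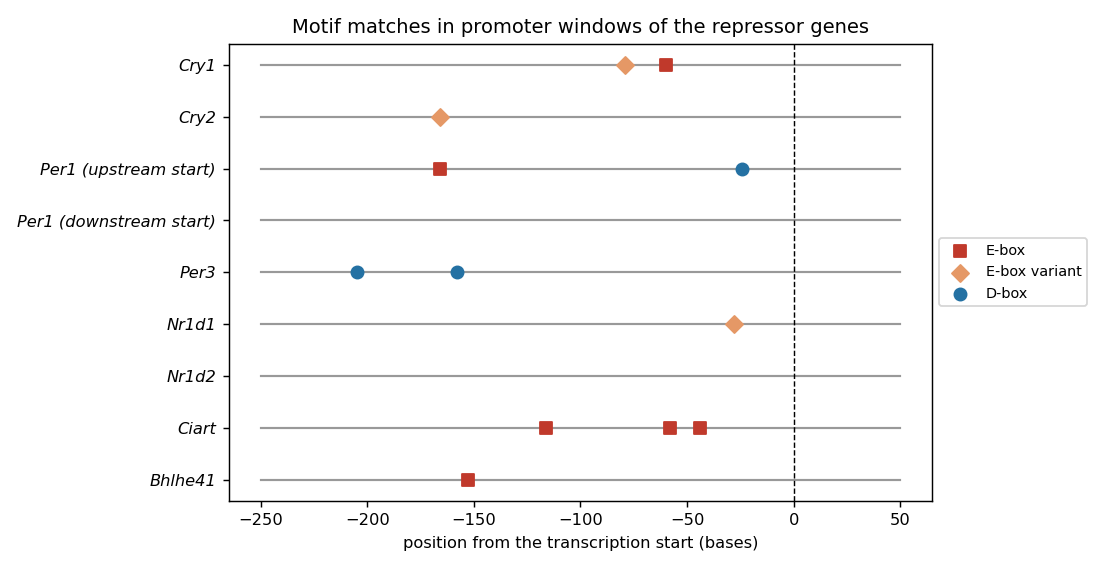
Positions of motif matches in the 9 promoter windows of the members, in bases from the start of transcription (dashed line), with squares for E-boxes, diamonds for the variant and circles for D-boxes. Ciart carries 3 E-boxes within its window, between -116 and -44, and the windows of Nr1d2 and of the downstream start of Per1 carry no match.

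The libraries held between 25957409 and 36106949 counts, and levels are given as CPM, in which counts are divided by the library total after its TMM correction. The members were well covered, from the 111 counts of Ciart in one CPN-/- CRY1 library to the 9498 counts of Cry2 in one CPN-/- CRY2 library. Genes were called lower or higher where the edgeR quasi-likelihood test gave a p, adjusted over all 14069 genes by the Benjamini-Hochberg method, under 0.05. Log2 fold changes are given with their standard errors. Of 10 fibroblast markers, 9 were expressed enough to be tested. Thy1, at 0.23 CPM or less, was not, and Dcn was at 2.24 CPM or less. The summed level of the 10 was between 11164 and 14112 CPM in CPN-/-, between 13587 and 13884 CPM in CPN-/- CRY1, and between 17402 and 17841 CPM in CPN-/- CRY2. Summed markers of epithelium, endothelium, macrophages and skeletal muscle were at or below 2.34 CPM in every library, and Epcam had no counts. The muscle marker Des, at 2.00 CPM or less, was called lower with CRY1 (-1.13 ± 0.27, adjusted p = 0.0269), and the endothelial marker Pecam1, at 0.67 CPM or less, was lower with CRY1 than with CRY2 (-1.42 ± 0.34, adjusted p = 0.0340). Of the 9 tested fibroblast markers, 2 were called lower and 1 higher with CRY1, and 1 higher with CRY2. Between the CRY lines 3 of the 9 were called lower with CRY1 and 0 higher. They were Dcn (-4.36), Pdgfra (-1.42) and Col1a2 (-0.65). Over all genes 24.3% were called with CRY1, 6.66% with CRY2 and 16.3% between the CRY lines. The part of all these markers in the changes of the members was not tested. The 2 CPN-/- libraries differed from each other more than those of the other lines, with an SD of their log2 difference over genes of 0.44 against 0.23 and 0.24. This difference ran with transcript length, with a Spearman correlation across 12478 genes, which are not independent replicates, of 0.66. Both comparisons with CPN-/- use these libraries.

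In the CPN-/- CRY1 line most of the repressor arm was lower than in CPN-/-. Of the 10 members, 7 were called lower and Cry1 itself was called higher. Over all genes tested, 24.3% were called in this comparison and 13.1% were called lower. The members' median log2 fold change was -1.51, against -0.01 over all genes. Without the cryptochromes, 6 of 8 members were called lower, among them all 4 that had not been knocked out. In the CPN-/- CRY2 line 5 members were called lower and Cry2 was called higher. Here 6.66% of all genes were called and 4.08% were called lower, and the medians were -0.85 for the members and -0.01 for all genes. Without the cryptochromes, 4 of 8 members were called lower. The 2 libraries of the CRY1 line stood apart from those of CPN-/- for all 10 members, as they did for 66.9% of all genes, and those of the CRY2 line did so for 8 members and 55.1% of all genes. Since these samples are cells in bulk, fewer cells expressing a gene and less of its mRNA per cell cannot be told apart.

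**Figure D2:**
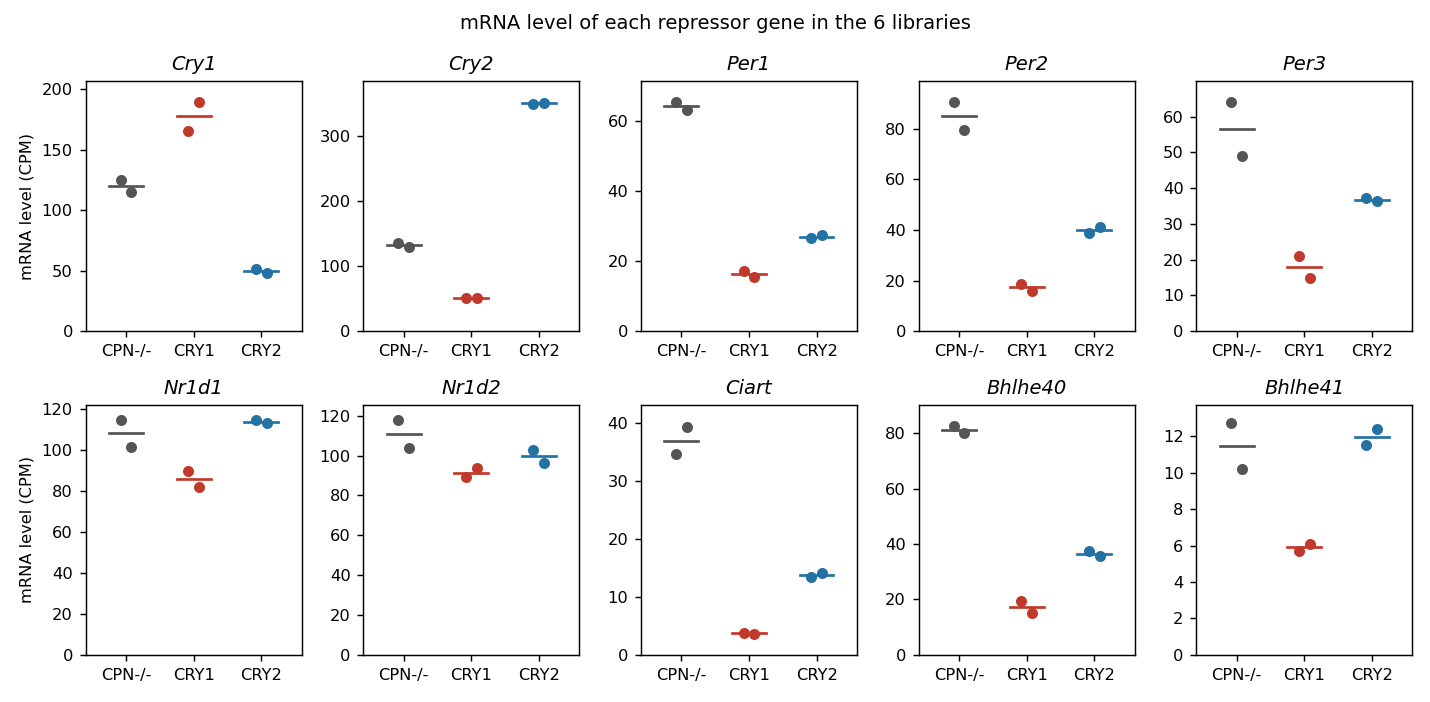
CPM of each member in the 6 libraries, with 2 points per line, bars at their mean and axes starting at 0. CRY1 and CRY2 on the horizontal axis stand for the CPN-/- CRY1 and CPN-/- CRY2 lines. Ciart falls from 34.6 and 39.3 CPM in CPN-/- to 3.79 and 3.60 CPM with CRY1 and 13.5 and 14.1 CPM with CRY2, while Nr1d1 and Nr1d2 stay above 80 CPM in every library.

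The cryptochrome genes themselves check the labels of the lines. They encode the repressors that close the main loop, and their counts combine reads from the introduced cDNA with any from the disrupted locus, which the tables do not separate. Cry1 was at 125 and 115 CPM in CPN-/-, 165 and 189.6 CPM in CPN-/- CRY1 and 51.0 and 48.3 CPM in CPN-/- CRY2. Cry2 was at 136 and 129 CPM in CPN-/-, 50.7 and 51.7 CPM in CPN-/- CRY1 and 349 and 351 CPM in CPN-/- CRY2. Each gene was thus highest in the line made to express it, and lowest in the line expressing the other. No library of one line overlapped with those of another for either gene.

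Relative to CPN-/-, Cry1 was 0.57 ± 0.11 higher on the log2 scale in the CRY1 line (adjusted p = 0.0126). This call was lost when either CRY1 library was left out, with log2 fold changes of 0.66 without replicate 1 and 0.47 without replicate 2. Far fewer genes were called over all genes in those fits. Cry2 was 1.40 ± 0.09 higher in the CRY2 line (adjusted p = 5.8e-04). The other cryptochrome, whose transcripts could come only from the disrupted locus, fell in both lines. Cry2 fell by 1.37 ± 0.09 in the CRY1 line, to 38.6% of its CPN-/- level (adjusted p = 3.4e-04). Cry1 fell by 1.27 ± 0.11 in the CRY2 line, to 41.4% (adjusted p = 0.0015). Both kept their direction and their call under every alternative fit.

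Cry2 shares 295 exonic bases with D930015M05Rik, a gene on the opposite strand. That gene was at 8.61 and 4.53 CPM in CPN-/-, 3.27 and 3.28 CPM in CPN-/- CRY1 and 38.5 and 36.9 CPM in CPN-/- CRY2. It was called lower with CRY1, at -1.02 ± 0.28 on the log2 scale (adjusted p = 0.0417), and higher with CRY2, at 2.51 ± 0.26 (adjusted p = 0.0029). Its level thus moved in the same direction as that of Cry2 in each line. The libraries were stranded, but the sources used here do not state whether the counting used strand, and the part of shared reads in either gene was not tested.

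The period genes encode the partners with which cryptochromes enter the nucleus. Per1 was at 65.4 and 63.1 CPM in CPN-/-, 17.3 and 15.4 CPM in CPN-/- CRY1 and 26.6 and 27.3 CPM in CPN-/- CRY2. Per2 was at 90.4 and 79.4 CPM, then 18.8 and 15.8 CPM with CRY1 and 38.8 and 41.3 CPM with CRY2. Per3, the only period gene that had not been knocked out, was at 64.1 and 49.0 CPM, then 21.1 and 14.8 CPM with CRY1 and 37.2 and 36.4 CPM with CRY2. The order was the same for all 3 genes, with CPN-/- highest, CRY2 between and CRY1 lowest, and the lines did not overlap.

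With CRY1, the level of Per1 was 25.5% of that in CPN-/- (log2 fold change -1.97 ± 0.11, adjusted p = 1.7e-04). That of Per2 was 20.4% (-2.30 ± 0.13, adjusted p = 2.1e-04) and that of Per3 31.7% (-1.66 ± 0.20, adjusted p = 0.0025). With CRY2, Per1 was at 41.9% (-1.25 ± 0.10, adjusted p = 0.0011) and Per2 at 47.1% (-1.09 ± 0.12, adjusted p = 0.0041). The call of Per2 with CRY2 was lost without either CRY2 library, with log2 fold changes of -1.03 and -1.12. Per3 did not pass the test with CRY2, at -0.62 ± 0.19 (adjusted p = 0.119). It passed with DESeq2's Wald test (adjusted p = 0.0343) and after removal of the trend with transcript length (-0.78, adjusted p = 0.0089). With 1 library left out at a time, its log2 fold change ran from -0.79, without CPN-/- replicate 2, to -0.41.

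Per1 and Per2 were knocked out in all lines, and their counts report transcripts of the disrupted loci. Neither gene shares sequence of at least 95% identity over 150 bases with another annotated transcript, and the same holds for Per3 and Cry1.

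The REV-ERB receptors, which repress Arntl and other genes from ROR elements, had the smallest changes of the 10 with CRY1. Nr1d1 was at 114.5 and 101.5 CPM in CPN-/-, 89.5 and 81.7 CPM in CPN-/- CRY1 and 114.4 and 113.1 CPM in CPN-/- CRY2. The CRY1 libraries were below the others, and those of CRY2 fell within the range of CPN-/-. Nr1d2 was at 118.1 and 103.7 CPM, then 89.2 and 93.8 CPM with CRY1 and 103.0 and 96.4 CPM with CRY2. Here the 2 CRY lines were both below CPN-/-, and the nearest libraries of CRY2 and CPN-/- were less than 1 CPM apart.

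Neither gene was called in either comparison with CPN-/-. With CRY1 the log2 fold changes were -0.34 ± 0.10 for Nr1d1 (adjusted p = 0.0567) and -0.28 ± 0.11 for Nr1d2 (adjusted p = 0.095). With CRY2 they were 0.07 ± 0.10 (adjusted p = 0.668) and -0.15 ± 0.11 (adjusted p = 0.388). The calls of all 4 values changed in some fits. Nr1d1 with CRY1 was called with upper-quartile scaling (-0.36, adjusted p = 0.0418). Its value was -0.24 without CPN-/- replicate 1 and -0.41 without replicate 2. Nr1d2 with CRY1 was called without the length trend (-0.37, adjusted p = 0.0030), a fit that called 5186 of all genes. Without CPN-/- replicate 1 or 2 its value was -0.18 or -0.36. With CRY2, Nr1d1 was at 0.16 without CPN-/- replicate 1 and at -0.0017 without replicate 2. Nr1d2 with CRY2 was called lower without the length trend (-0.24, adjusted p = 0.0462). With 1 library left out at a time, Nr1d2 with CRY2 ran from -0.24, without CPN-/- replicate 2, to -0.06. With CRY1, leaving out a CPN-/- library also raised the number called over all genes well above that of the main fit.

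Thra, a thyroid hormone receptor gene on the opposite strand that shares 263 exonic bases with Nr1d1, was at 65.8 and 55.2 CPM in CPN-/-, 76.6 and 69.2 CPM with CRY1 and 89.7 and 96.5 CPM with CRY2. It was called higher with CRY2 (0.62 ± 0.12, adjusted p = 0.0299). Nr1d2 has a near copy, AC170187.1, with 96.1% identity over 1385 bases. How reads with several matches were counted is not given in the sources used here.

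Ciart, the gene of the CHRONO repressor, fell furthest of the 10. It was at 34.6 and 39.3 CPM in CPN-/-, 3.79 and 3.60 CPM in CPN-/- CRY1 and 13.5 and 14.1 CPM in CPN-/- CRY2. The lines were well apart, and the 2 libraries within each CRY line lay close together. With CRY1 the log2 fold change was -3.32 ± 0.13 (adjusted p = 7.8e-05), which left 10.0% of the CPN-/- level. It ranked 117 from the lowest of the 14069 genes. With CRY2 the log2 fold change was -1.42 ± 0.12 (adjusted p = 0.0011), which left 37.4%, at rank 372. Both calls held under every alternative fit, with the CRY1 value between -3.40 and -3.14 and the CRY2 value between -1.51 and -1.25.

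Genes of chromosome 3, which carries Ciart, had a median log2 fold change of -0.28 with CRY1 and 0.11 with CRY2. Relative to its chromosome, Ciart was at -3.04 and -1.53. Ciart shares 1126 bases with Gm9176 at 96.7% identity, and how reads matching both were counted is not given in the sources used here.

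Bhlhe40 and Bhlhe41 encode DEC1 and DEC2, which bind E-boxes and repress from them. Bhlhe40 was at 82.6 and 79.98 CPM in CPN-/-, 19.5 and 15.2 CPM in CPN-/- CRY1 and 37.4 and 35.7 CPM in CPN-/- CRY2. Bhlhe41 was far lower, at 12.7 and 10.2 CPM in CPN-/-, 5.73 and 6.10 CPM in CPN-/- CRY1 and 11.5 and 12.4 CPM in CPN-/- CRY2. For Bhlhe40 the 3 lines stood apart in the order seen for the period genes. For Bhlhe41 the CRY1 line alone was low, and the CRY2 libraries lay within the range of CPN-/-.

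With CRY1, Bhlhe40 was at 21.4% of CPN-/- (-2.22 ± 0.14, adjusted p = 2.7e-04) and Bhlhe41 at 51.4% (-0.96 ± 0.15, adjusted p = 0.0064). With CRY2, Bhlhe40 was at 44.96% (-1.15 ± 0.13, adjusted p = 0.0039) and Bhlhe41 was not called (0.06 ± 0.14, adjusted p = 0.823). The sign of the Bhlhe41 value with CRY2 turned without CPN-/- replicate 2 (-0.08) and without the length trend (-0.11). The call of Bhlhe40 with CRY2 was lost without either CRY2 library (-1.18 and -1.11). The call of Bhlhe41 with CRY1 was lost without either CRY1 library (-0.91 and -1.001), in fits that called far fewer genes over all genes.

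Bhlhe40 shares 118 exonic bases with 0610040F04Rik on the opposite strand, which was at 6.85 and 4.03 CPM in CPN-/-, 1.72 and 0.88 CPM with CRY1 and 2.42 and 2.93 CPM with CRY2. It was called lower with CRY1 (-2.06 ± 0.36, adjusted p = 0.0099), as Bhlhe40 was. Bhlhe41 shares 1280 exonic bases with Gm43909 on the opposite strand, which was not matched to an identifier here. The part of shared reads was not tested.

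**Figure D3:**
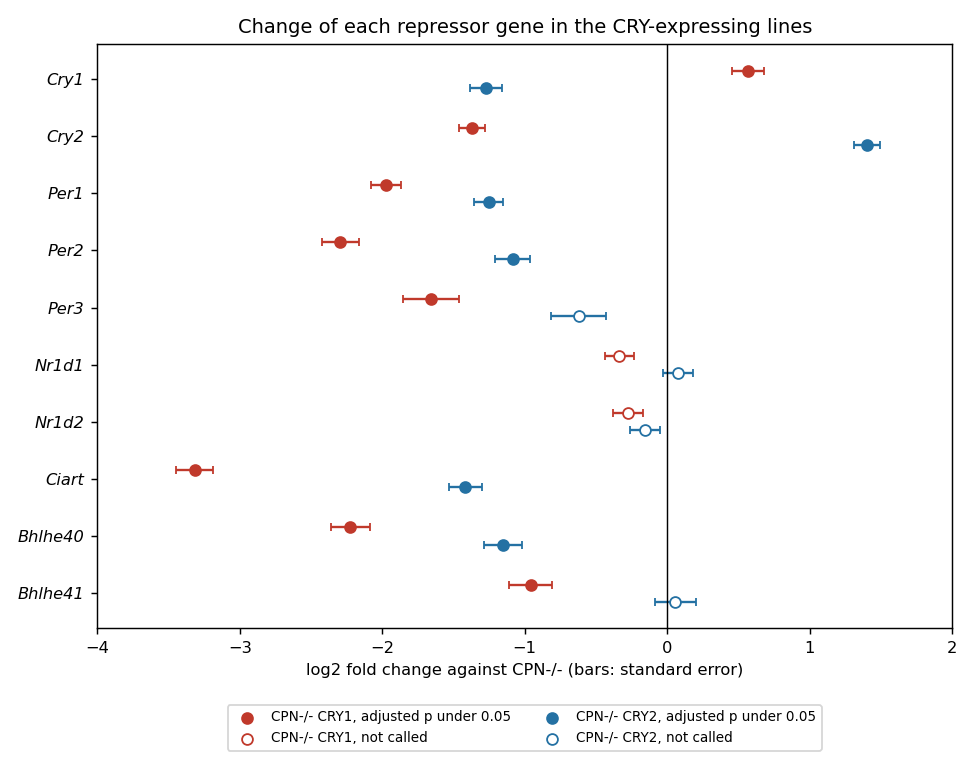
Log2 fold change of each member against CPN-/- in the CPN-/- CRY1 (red) and CPN-/- CRY2 (blue) lines, with bars for the standard error and filled points for an adjusted p under 0.05. Values with CRY1 reach -3.32 for Ciart, and the introduced genes, Cry1 at 0.57 and Cry2 at 1.40, are the called points to the right of 0.

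The 2 comparisons above share the CPN-/- libraries, so whether the lines differ was tested by comparing the CRY1 and CRY2 lines directly. Of the 10 members, 9 were called, 8 of them lower in the CRY1 line, and Cry1 higher. The 8 include Cry2, the gene that the other line was made to express. Without the cryptochromes, 7 of 8 members were called lower. Over all genes 16.3% were called and 8.57% were called lower. The 2 lines did not overlap for any member, as for 73.3% of all genes. The members' median log2 difference was -1.03, and that of all genes was near 0. The member that was not called was Nr1d2, at -0.12 ± 0.11 (adjusted p = 0.490).

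Among the members that are neither Cry1 nor Cry2, Ciart differed most between the lines, with 26.8% of the CRY2 level in the CRY1 line (-1.90 ± 0.13, adjusted p = 3.7e-04). Relative to the median of its chromosome, which was -0.40, the value was -1.495. Per2 was at 43.2% (-1.21 ± 0.13, adjusted p = 0.0017) and Bhlhe40 at 47.6% (-1.07 ± 0.13, adjusted p = 0.0033). These 3 calls held under every alternative fit. Per3 was at 48.8% (-1.04 ± 0.20, adjusted p = 0.0157), Bhlhe41 at 49.4% (-1.02 ± 0.15, adjusted p = 0.0064), Per1 at 60.7% (-0.72 ± 0.10, adjusted p = 0.0058) and Nr1d1 at 75.3% (-0.41 ± 0.10, adjusted p = 0.0399). These last 4 kept their direction in every fit and lost the call when a CRY library was left out. Per1, Nr1d1 and Bhlhe41 lost it without any one of the 4 CRY libraries. Per3 lost it without any of them but CPN-/- CRY1 replicate 1.

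Cry1 was at a mean of 177 CPM in the CRY1 line and Cry2 at a mean of 349.9 CPM in the CRY2 line. These CPM are of 2 different genes, are not corrected for length and include any reads of the disrupted loci. In CPN-/- the means were 119.8 CPM for Cry1 and 132.5 CPM for Cry2. The level of the introduced mRNA was not measured apart from the disrupted locus. That level, the clone and the kind of cryptochrome cannot be told apart between these 2 lines.

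Levels of different genes were compared per length, as CPM per kilobase of the longest annotated transcript. In CPN-/- the order ran from Nr1d1 at 39.7 ± 3.37 (SD, n = 2) and Cry1 at 39.6 ± 2.39 down to Per3 at 9.43 ± 1.79 and Bhlhe41 at 1.87 ± 0.29. Between them lay Cry2 at 33.3 ± 1.23, Bhlhe40 at 26.1 ± 0.59, Nr1d2 at 23.8 ± 2.19, Ciart at 19.0 ± 1.71, Per2 at 14.6 ± 1.33 and Per1 at 13.8 ± 0.36. The ranges of Nr1d1 and Cry1 overlapped, as did those of Per2 and Per1. Every other neighbouring pair was separate on this scale.

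In the CRY1 line Nr1d2 stood above both Cry2 and Bhlhe40, which were above it in CPN-/-. Cry1, at 58.6 ± 5.70 CPM per kilobase, was followed by Nr1d1 at 31.5 ± 2.02, Nr1d2 at 19.6 ± 0.71 and Cry2 at 12.9 ± 0.18. The others were at 5.58 or less, with Ciart at 1.91 ± 0.07 and Bhlhe41 at 0.96 ± 0.04 at the bottom. Ciart had moved from sixth place in CPN-/- to ninth. Per1, Per3 and Per2, in this order, overlapped with their neighbours.

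In the CRY2 line Cry2 led at 88.0 ± 0.34 CPM per kilobase, followed by Nr1d1 at 41.8 ± 0.32, Nr1d2 at 21.4 ± 1.00, Cry1 at 16.4 ± 0.63 and Bhlhe40 at 11.7 ± 0.37. Ciart, at 7.12 ± 0.23, overlapped with Per2 at 6.86 ± 0.31. Per3 at 6.13 ± 0.10, Per1 at 5.77 ± 0.11 and Bhlhe41 at 1.95 ± 0.11 followed. The values and the order depend on the length used. In the line made to express it, the counts of Cry1 or Cry2 include reads of the introduced cDNA. The length of that cDNA need not be that of the annotated transcript, so its level and place there are uncertain. Dividing by all exonic bases of a gene moved 25 of these 30 levels by more than 1 SD, and those of Cry2, Per3 and Bhlhe40 most, to 20.97, 5.89 and 17.3 in CPN-/-. Some neighbours then changed places. In CPN-/-, Cry1 (35.9) then stood above Nr1d1 (35.1) and Nr1d2 (20.5) above Bhlhe40. With CRY1 the period genes then ran Per2 (2.95), Per1 (2.90) and Per3 (1.86), and with CRY2, Per2 (6.83) stood above Ciart (6.10) and Per1 (4.78) above Per3 (3.83).

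**Figure D4:**
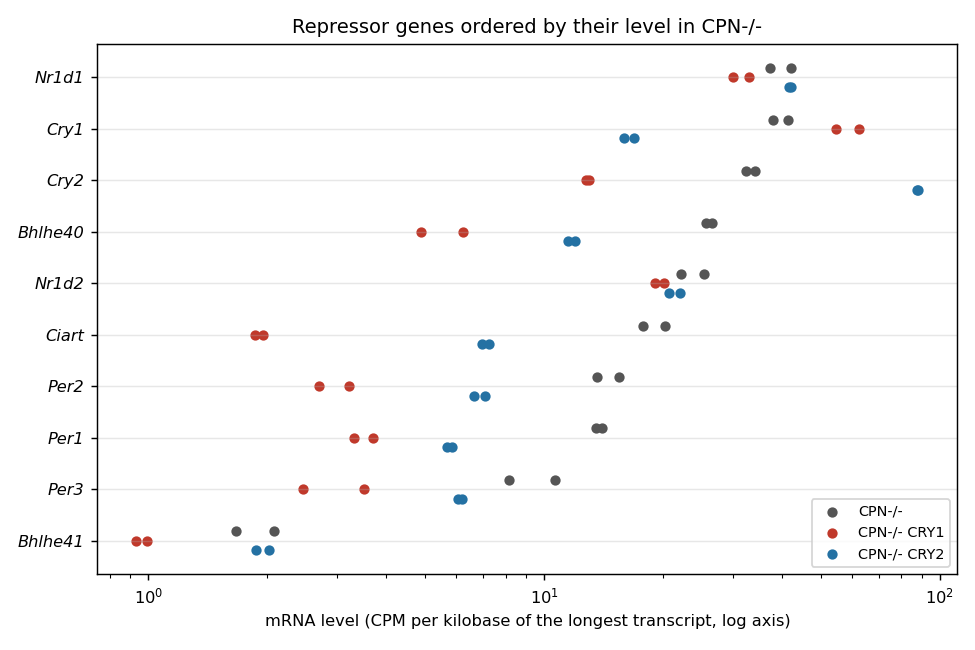
Level of each member in CPM per kilobase of its longest transcript, on a log axis, with 1 point per library and the genes ordered by their mean in CPN-/-. The points of Ciart spread from 1.91 on average with CRY1 to 19.0 in CPN-/-, while those of Nr1d2 lie between 19.6 and 23.8 on average.

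Other clock genes were taken in 5 lists. The PAR bZIP factors Dbp, Tef and Hlf activate from D-boxes, and Nfil3 represses from them. In the CRY1 line 3 of these 4 genes fell, and in the CRY2 line 2 fell, beside 13.1% and 4.08% of all genes called lower. Dbp was at 62.6 and 70.7 CPM in CPN-/-, 14.97 and 11.1 CPM with CRY1 and 27.3 and 30.3 CPM with CRY2, with the 3 lines apart. Its log2 fold changes were -2.35 ± 0.16 with CRY1 (adjusted p = 3.8e-04) and -1.21 ± 0.16 with CRY2 (adjusted p = 0.0065). Hlf, at 10.8 and 6.79 CPM in CPN-/-, was at 0.39 and 0.32 CPM with CRY1 and 2.20 and 2.19 CPM with CRY2. Its log2 fold changes were -4.61 ± 0.32 (adjusted p = 3.8e-04) and -2.01 ± 0.25 (adjusted p = 0.0056). Tef fell with CRY1 (-1.62 ± 0.11, adjusted p = 3.1e-04) and was not called with CRY2 (-0.20, adjusted p = 0.27).

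Of the 7 activators and ROR receptors, 2 rose and 2 fell with CRY1 and none was called with CRY2. Over all genes 24.3% were called with CRY1 and 6.66% with CRY2. Arntl, which encodes BMAL1, was at 44.0 and 40.5 CPM in CPN-/-, 52.8 and 56.2 CPM with CRY1 and 54.7 and 51.7 CPM with CRY2. It was called higher with CRY1 (0.37 ± 0.10, adjusted p = 0.0389) and not with CRY2 (0.33, adjusted p = 0.112). Clock was not called in either line (0.60 and 0.55, adjusted p = 0.0755 and 0.170), and its 2 CPN-/- libraries, at 93.7 and 58.9 CPM, were far apart. Npas2, which can stand in for Clock, was called higher with CRY1 (1.10 ± 0.26, adjusted p = 0.0259) at no more than 2.08 CPM in any library. The receptor gene Rorb was called lower with CRY1 (-2.01 ± 0.30, adjusted p = 0.0056). With DESeq2, Npas2 was not called with CRY1 and Clock was. With CRY2, DESeq2 called 1 of the 7, Rorb, beside 1325 of all genes. Not being called does not show that a gene was unchanged.

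Of the 5 clock output genes with E-boxes, 3 fell with CRY1, beside 13.1% of all genes called lower. None was called with CRY2, beside 6.66% of all genes. The 3 were Klf10 (-0.48 ± 0.10, adjusted p = 0.0166), Usp2 (-0.72 ± 0.16, adjusted p = 0.0212) and the cell cycle kinase gene Wee1 (-0.47 ± 0.10, adjusted p = 0.0172). With CRY2, DESeq2 called 2 of the 5, Noct and Klf10, beside 1325 of all genes. With CRY1, the 3 changes were smaller than those of Ciart, the period genes and Bhlhe40. Of the 12 kinases and ubiquitin enzymes that act on clock proteins, 1 fell and 3 rose with CRY1, beside 24.3% called over all genes. None was called with CRY2 by edgeR or DESeq2, beside 6.66% over all genes with edgeR. Csnk1e, a casein kinase that phosphorylates PER proteins, fell (-0.42 ± 0.09, adjusted p = 0.0171). The kinase gene Gsk3b (0.70 ± 0.19, adjusted p = 0.0377) and the ubiquitin protease gene Usp7 (0.47 ± 0.11, adjusted p = 0.0221) were among those that rose. None of the 12 protein partners and corepressors was called by edgeR against CPN-/- in either line. Over all genes the shares were 24.3% with CRY1 and 6.66% with CRY2. DESeq2 called 2 of the 12 with CRY1, Hdac1 and Sirt1, beside 3819 of all genes, and 0 with CRY2.

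Between the CRY lines, Dbp, Tef and Hlf were lower with CRY1 (-1.14, -1.42 and -2.60, adjusted p = 0.0057, 4.9e-04 and 0.0056). Npas2 was higher with CRY1 (2.61, adjusted p = 0.0033) and Rorb lower (-2.95, adjusted p = 0.0013). Wee1 was the output gene called (-0.41, adjusted p = 0.0356). Of the enzymes, Btrc (0.50, adjusted p = 0.0319) and Usp7 (0.48, adjusted p = 0.0271) were higher with CRY1, and Prkaa1, the gene of an AMP-activated kinase subunit, was lower (-0.50, adjusted p = 0.0350). Of the partners, Timeless was lower (-0.41, adjusted p = 0.0470).

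The median log2 fold changes with CRY1 were -1.99 for the PAR bZIP list, 0.37 for the activators and receptors, -0.47 for the output genes, -0.01 for the enzymes and 0.00 for the partners, beside -1.51 for the repressor arm and -0.01 for all genes. With CRY2 they were -0.87, 0.33, -0.18, -0.01 and 0.11, beside -0.85 and -0.01.

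**Figure D5:**
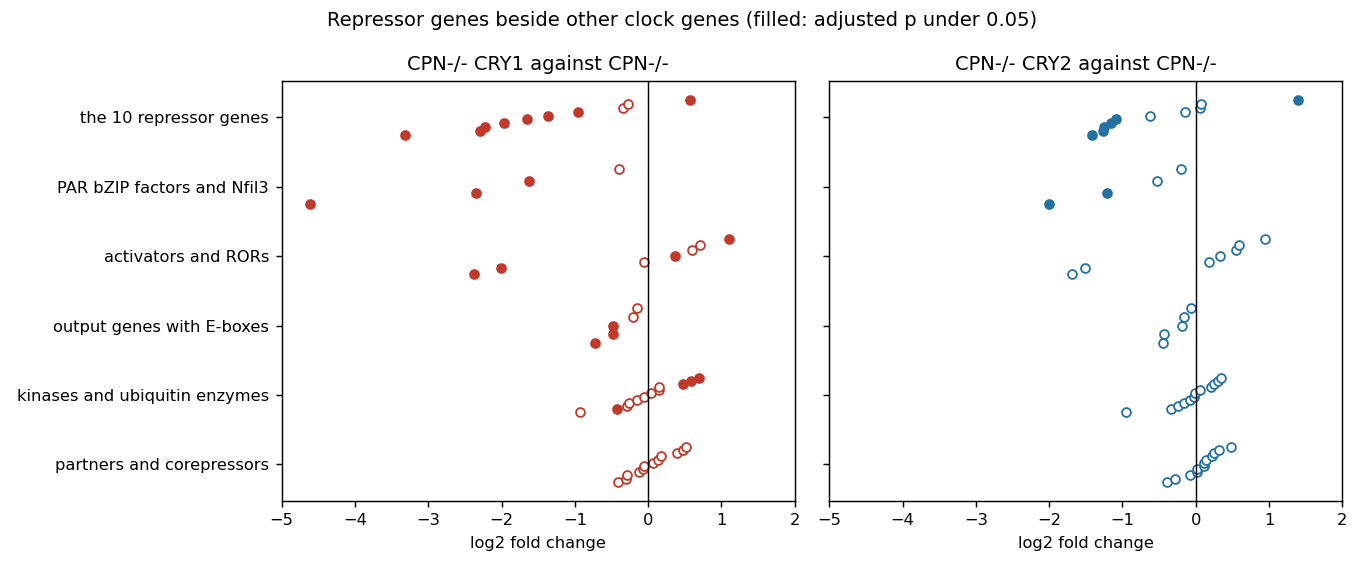
Log2 fold change of each tested gene of the repressor arm and of 5 other clock gene lists in CPN-/- CRY1 (left) and CPN-/- CRY2 (right) against CPN-/-, with filled points for an adjusted p under 0.05. Called points far to the left are found among the repressor genes and the PAR bZIP factors in both panels, down to Hlf at -4.61, and none of the 12 partners and corepressors is filled by the edgeR test.

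The genes whose pattern over the 6 libraries lay nearest to that of each untargeted member were sought among the 11408 genes that averaged 100 counts or more per library. Likeness was measured as the root mean square difference of the 6 log2 CPM values, each gene being centred on its own mean in CPN-/-. Nearest to Bhlhe40 was Per2, at 0.09, followed by Dbp at 0.12 and Cdsn at 0.16. Nearest to Per3 were Vsir (0.13), Pdxk (0.17) and P2rx3 (0.21). Ciart had more distant neighbours, Kif21b (0.29), Cdh11 (0.39) and Xdh (0.43). Bhlhe41 was closest to Mpp2 (0.09), Slc43a2 (0.10) and Fancd2 (0.10). With 6 libraries of 3 lines, such likeness is a description only. Within the repressor arm, Bhlhe40 also lay near Per1 (0.17), and Per1 lay 0.22 from Per2, while Cry1 and Cry2 were 1.90 apart.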

How the data were processed

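Per the labels and the study's methods, the authors prepared stranded libraries from polyadenylated RNA, mapped paired-end reads to mm10 (STAR) and obtained gene counts (featureCounts). The deposited values are raw counts for 27179 genes. Annotation, strand setting and handling of reads with several matches are not given in the sources used here. Libraries were grouped by their titles.

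R 4.3.3 and edgeR 4.0.16 were used. The filterByExpr function (minimum count 10, minimum total 15) kept 14069 genes. A quasi-likelihood model (robust, TMM factors, line as the only term) was fitted to all 6 libraries, and each of the 3 contrasts was tested two-sided, with Benjamini-Hochberg adjustment and a threshold of 0.05. An exact permutation of 2 against 2 libraries cannot give a p below 0.333, so none was used. The steps were tested on simulated data.

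The members and lists were chosen with earlier results of these data known. The genes named by rule are the 10 members, Clock, Arntl and Dbp, up to 3 called genes of each of the 5 clock lists per comparison by size of change, genes whose exons overlap a member, and the 3 nearest in pattern to each untargeted member. Further genes (Csnk1e, near-identical copies, markers and those DESeq2 alone called) were added after their values were seen. Alternatives were other size factors (DESeq2, library size, upper quartile), other filters and thresholds, a replicate block, the 4 libraries of a contrast alone, DESeq2 1.42.0, removal of each library's length trend (loess, span 0.5), subtraction of chromosome medians, and leaving out each library. Transcript lengths came from GENCODE and positions and promoter windows from RefSeq. Near-identical sequence was sought with BLAST+ 2.17.0 (at least 95% over 150 bases). Some called genes of the clock lists are counted but not reported here by name.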

Additional observations from a re-analysis of the deposited data

Results flagged for a closer look

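The change against CPN-/- differed between the CRY1 and CRY2 lines, by the direct test with edgeR, for 9 of the 10 members. Outside Cry1 and Cry2, which the lines were made to express, it differed for 7 of 8. Over all genes 16.3% were called in that test. The differences of the log2 fold changes, CRY1 minus CRY2, were -1.90 for Ciart, -1.21 for Per2, -1.07 for Bhlhe40, -1.04 for Per3, -1.02 for Bhlhe41, -0.72 for Per1 and -0.41 for Nr1d1. For the introduced genes they were 1.84 for Cry1 and -2.77 for Cry2. Bhlhe41 and Nr1d1 had CRY2 values of 0.06 and 0.07 and CRY1 values of -0.96 and -0.34. The CRY1 value of Nr1d1 was not called, and without CPN-/- replicate 1 its values were -0.24 with CRY1 and 0.16 with CRY2. With 2 libraries per line, no library could be tested as standing apart from its group.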

How the results depend on the processing

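Of the 30 log2 fold changes of members, 16 kept their direction and their side of the threshold in every refit. The members called with CRY1 against CPN-/- numbered 8, and between 6 and 9 under the other settings. With CRY2 they numbered 6, and between 6 and 8, and between the CRY lines 9, and between 7 and 9. Over all genes, 3423 were called with CRY1, 937 with CRY2 and 2292 between the CRY lines. With the length trend removed, 5186 were called with CRY1 and 2100 with CRY2. With the 4 libraries of the contrast alone, 1798 of all genes were called with CRY1. When 1 library was left out at a time, the numbers called were between 6 and 10, between 4 and 8, and between 5 and 9 in these 3 comparisons. Between the CRY lines 5 members were called without CPN-/- CRY1 replicate 2 or without either CPN-/- CRY2 library. The direction turned for Bhlhe41 with CRY2, to -0.11 with the length trend removed and to -0.083 without CPN-/- replicate 2, and for Nr1d1 with CRY2, to -0.0017 without CPN-/- replicate 2. With 1 library left out, these values ran from -0.083 to 0.23 for Bhlhe41 and from -0.0017 to 0.16 for Nr1d1. A fit that leaves 1 library in a line assumes that it varies like the others. The median of all genes moved by less than 0.1 under each scaling.

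The labels do not say whether same-numbered libraries were prepared together. Their deviations correlated at -0.08, 0.14 and -0.03. This cannot decide it, because the difference between the CPN-/- libraries ran with transcript length. With the replicate block, 8 members were called with CRY1 and 7 with CRY2, beside 3458 and 977 of all genes. Per3 with CRY2 became called (-0.60, adjusted p = 0.0465). The block changed no other member's call.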
